A study of Mus musculus with 9 samples.

Results

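Serotonin handling in mouse lung was followed through 6 genes, which were the plasma membrane serotonin transporter Slc6a4, the receptors Htr1b, Htr2a and Htr2b, the synthetic enzyme Tph1 and the degrading enzyme Maoa. They were taken by gene symbol with no filter on their values, though the choice was made with earlier results of these data known. All 6 were found among the 53342 genes of the deposited table. Polyadenylated RNA of whole lung had been sequenced from C57BL/6 mice (C57BL/6J in the treatment protocol), with a strand-specific library kit, in 9 libraries that form 3 groups of 3. The first group was kept at 10% oxygen for 3 weeks and injected daily with parathyroid hormone (PTH), as the peptide of residues 1 to 34 at 40 µg/kg (PTH replicates 3, 4 and 5). The second was kept at 10% oxygen for 3 weeks (hypoxia replicates 1, 2 and 5), and the third was kept in normoxia (normoxia replicates 2, 3 and 5). The mice of the hypoxia and normoxia groups are titled wild type and no genetic change is given for the PTH group. A sham group injected with saline is mentioned without saying which libraries it comprises. The labels give neither age nor sex and do not say that each library is a separate animal, so the p-values below measure the spread between libraries.

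Serotonin is made from tryptophan, and tryptophan hydroxylase, encoded outside the brain mainly by Tph1, sets the rate. In the lung circulation serotonin is taken up by endothelial and smooth muscle cells through the transporter and broken down inside the cell by monoamine oxidase A. Outside the cell it acts on receptors of the Htr1 family, which couple to inhibitory G proteins, and of the Htr2 family, which couple to Gq and phospholipase C. The transporter and the Htr1b, Htr2a and Htr2b receptors are known for their parts in constriction and growth of pulmonary artery smooth muscle and in experimental pulmonary hypertension. The series title places the study in pulmonary hypertension and its aggravation by PTH.

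None of the 5 genes that could be tested passed the test in any comparison. Maoa and Slc6a4 were expressed in every library, and a doubling between groups lay outside their 95% intervals in the edgeR fit reported. Htr2a and Htr1b were low and varied most, Htr2b was lower still, and Tph1 had counts in 1 library. Levels are counts per library size in CPM, with library sizes scaled by TMM, a method that sets the libraries to a common level. Fold changes are log2 values from edgeR's quasi-likelihood test with their standard error (SE), and a gene was called at a Benjamini-Hochberg adjusted p under 0.05 over all 19640 genes tested. Of the 6 genes, 5 had enough counts to be tested and 0 were called, against 0% of all genes tested in PTH with hypoxia against hypoxia, 1.74% in PTH with hypoxia against normoxia and 0.57% in hypoxia against normoxia. DESeq2 also called 0 of the 5 in each comparison, against 0.919%, 7.67% and 4.28% of the genes to which it gave an adjusted p, in the same order. At an unadjusted edgeR p under 0.05, 0 of the 5 passed in PTH with hypoxia against hypoxia (9.31% of all genes tested), 2 in PTH with hypoxia against normoxia (17.2%) and 0 in hypoxia against normoxia (11.8%). The 2 were Htr2a and Htr1b, with opposite signs. The groups did not overlap for 0 of the 5 genes in PTH with hypoxia against hypoxia (13.9% of all genes tested), for Htr1b in PTH with hypoxia against normoxia (22.8%) and for Maoa in hypoxia against normoxia (17.1%). The groups share libraries, so the 3 comparisons are not independent of each other. In RNA of whole lung, fewer cells of a type and less RNA per cell cannot be told apart.

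The libraries held 40234030 to 58391086 counts. The lung label was checked against 8 alveolar epithelial markers, which summed to 19766 to 27014 CPM in all libraries. Markers of heart muscle (8 genes) summed to 49.8 to 499 CPM in PTH with hypoxia, 427 to 1619 CPM in hypoxia and 262 to 886 CPM in normoxia, and those of fat (6 genes) to 15.9 to 43.7, 12.1 to 192 and 19.2 to 143 CPM in the same groups. Of the 13 tested, 0 were called by edgeR or DESeq2 and 0 had an unadjusted edgeR p under 0.05 in any comparison, and no marker of either list was at 0 in every library. A score of both lists per library, the mean centred log2 CPM, ran from -3.13 in PTH replicate 5 to 2.18 in hypoxia replicate 5. A score of clock genes was 4.81 to 5.63 in hypoxia replicates 1 and 2 and normoxia replicates 2 and 3, and -0.11 to 0.73 in the other 5 libraries, which include all 3 PTH libraries. Fits with either score as a covariate called 0 of the 5 tested serotonin genes.

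Compared per length of exon, the order of the levels was Maoa, Slc6a4, Htr1b and Htr2a, Htr2b and Tph1. Maoa had 11.9 to 20.2 CPM per kb of exon over the 9 libraries and stood above the transporter in all of them. Slc6a4 had 0.73 to 1.24 CPM per kb. Htr1b had 0.28 to 1.15 CPM per kb and Htr2a 0.20 to 1.26 CPM per kb. These ranges overlap. Slc6a4 exceeded Htr1b in 8 of 9 libraries, all but normoxia replicate 2, and exceeded Htr2a in 8 of 9, all but PTH replicate 4. Htr1b exceeded Htr2a in 5 of 9 libraries, so the order of these receptors was not settled within the spread. Htr2b had 0.17 to 0.33 CPM per kb and was below Slc6a4 in every library, below Htr1b in 8 and below Htr2a in 7. Tph1 reached 0.0118 CPM per kb in 1 library and had no count in the others. In the deposited TPM values, which are per length and have a floor of 1 TPM, Slc6a4 and Maoa were above the floor in 9 libraries, Htr1b in 8, Htr2a in 7, and Htr2b and Tph1 in 0.

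**Figure D1:**
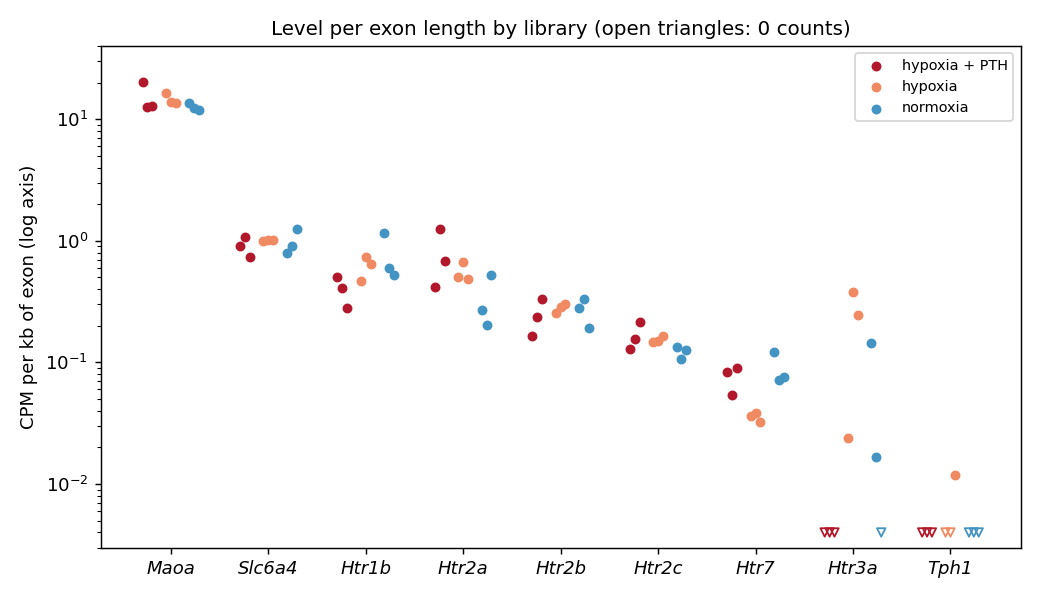
Level per exon length (CPM per kb, log axis) of the serotonin genes and of the 3 other serotonin receptors with enough counts to be tested, 1 point for each library, with the groups side by side and open triangles for libraries with 0 counts. Maoa lies at 11.9 to 20.2 CPM per kb, Slc6a4, Htr1b and Htr2a lie between 0.20 and 1.26, and Tph1 has 1 point.

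Slc6a4 (ENSMUSG00000020838, mm10 chr11:76998603-77032340, plus strand) encodes the transporter that clears serotonin from the extracellular space and is the target of the selective serotonin reuptake inhibitors. Its level was 4.11, 4.83 and 3.31 CPM in PTH replicates 3, 4 and 5, 4.50, 4.63 and 4.58 CPM in hypoxia replicates 1, 2 and 5, and 3.62, 4.13 and 5.64 CPM in normoxia replicates 2, 3 and 5. The hypoxia libraries lay close together, and the other groups spread to both sides of them. The means were 4.08 ± 0.758 CPM in PTH with hypoxia, 4.57 ± 0.0655 CPM in hypoxia and 4.46 ± 1.05 CPM in normoxia (SD, n = 3 each). The log2 fold change was -0.16 in PTH with hypoxia against hypoxia (SE 0.21, 95% interval -0.63 to 0.30, edgeR adjusted p = 0.873). It was -0.13 in PTH with hypoxia against normoxia (SE 0.21, interval -0.59 to 0.34, adjusted p = 0.821) and 0.04 in hypoxia against normoxia (SE 0.21, interval -0.43 to 0.50, adjusted p = 0.974), both by edgeR. Doubling or halving, a log2 change of 1 or -1, lies outside all of these intervals, whereas smaller changes of either sign lie within them. In a fit with the clock score as covariate the first 2 values were -0.33 and -0.25 (SE 0.25 and 0.23, edgeR adjusted p = 0.830 and 0.728). With the replicate number as a block, PTH with hypoxia against hypoxia gave -0.43 (SE 0.35, edgeR adjusted p = 0.912). An antisense gene annotated over the Slc6a4 locus, Gm12343, had 0 counts in all libraries.

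The promoter of the transporter gene is shown because the transporter comes first among the serotonin genes described, and its window held both kinds of motif searched for. The motifs were ACGTG and GCGTG, the core letters of the element bound by hypoxia-inducible factors, and TGACG, the core of the cyclic AMP response element, cyclic AMP being a messenger of the PTH receptor. Both strands were searched in windows from 250 bases before to 50 bases after each start, taken from RefSeq (GRCm38.p6, the assembly of mm10). Positions count from 1 at the start base, with negative numbers before it. The window of Slc6a4 is chr11:76998347-76998646 on the plus strand, with matches in capitals.
Slc6a4: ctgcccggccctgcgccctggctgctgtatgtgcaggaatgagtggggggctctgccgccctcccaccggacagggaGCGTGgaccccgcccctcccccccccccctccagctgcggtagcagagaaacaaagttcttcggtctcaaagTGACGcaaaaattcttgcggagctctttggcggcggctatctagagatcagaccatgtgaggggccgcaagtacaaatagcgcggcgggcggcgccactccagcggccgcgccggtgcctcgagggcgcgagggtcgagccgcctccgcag
GCGTG stood at -173 and TGACG at -101, without overlap, and ACGTG did not occur in this window. Over all 32851 RefSeq windows of 300 bases, 19.6% held ACGTG, 32.4% GCGTG, 43.8% either of these and 20.8% TGACG. Matches of such short words are a description of the letters.

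Htr1b (ENSMUSG00000049511, mm10 chr9:81628291-81633828, minus strand) encodes a receptor coupled to inhibitory G proteins that mediates constriction in pulmonary arteries. Its level was 2.36, 1.94 and 1.33 CPM in PTH replicates 3, 4 and 5, 2.23, 3.47 and 3.03 CPM in hypoxia replicates 1, 2 and 5, and 5.42, 2.80 and 2.45 CPM in normoxia replicates 2, 3 and 5. All PTH libraries lay below all normoxia libraries, the nearest pair being 2.36 and 2.45 CPM, and the hypoxia group overlapped both. The means were 1.88 ± 0.522 CPM in PTH with hypoxia, 2.91 ± 0.633 CPM in hypoxia and 3.56 ± 1.63 CPM in normoxia (SD, n = 3 each). PTH with hypoxia against normoxia gave a log2 fold change of -0.92 (SE 0.35, 95% interval -1.69 to -0.15, edgeR unadjusted p = 0.0237 and adjusted p = 0.208). The two-sided exact permutation test gave p = 0.1, the smallest that 3 against 3 libraries allow. The difference did not pass the test over all genes, and DESeq2 gave an adjusted p of 0.0985. Without normoxia replicate 2, the highest library, the log2 fold change was -0.48 (edgeR adjusted p = 0.559). The other comparisons gave -0.63 in PTH with hypoxia against hypoxia (SE 0.35, interval -1.41 to 0.14, edgeR adjusted p = 0.607) and -0.29 in hypoxia against normoxia (SE 0.34, interval -1.05 to 0.47, edgeR adjusted p = 0.822). The last of these was 0.15 without normoxia replicate 2.

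Htr1b shares its locus with D430036J16Rik, annotated on the opposite strand. The 2 genes have 852 bases of exon in common, 18.04% of those of Htr1b and 38.1% of those of D430036J16Rik. Whether the deposited counts used the strand is not given in the sources used here, so reads of the shared bases cannot be assigned to either gene with certainty. D430036J16Rik had 3.19, 3.10 and 1.51 CPM in PTH replicates 3, 4 and 5, 3.02, 5.16 and 5.26 CPM in hypoxia replicates 1, 2 and 5, and 6.83, 5.30 and 4.18 CPM in normoxia replicates 2, 3 and 5. Its libraries followed a similar order, with all PTH libraries below all normoxia libraries. Its log2 fold change was -1.06 in PTH with hypoxia against normoxia (SE 0.33, edgeR adjusted p = 0.138, DESeq2 adjusted p = 0.0251), so it passed in DESeq2 and did not pass in edgeR.

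The 3 libraries with the most Htr1b, hypoxia replicates 2 and 5 and normoxia replicate 2, were the 3 with the highest muscle and fat score, and both genes were lowest in PTH replicate 5, which had the lowest score. In a fit with that score as covariate, the log2 fold change of Htr1b was -0.50 in PTH with hypoxia against normoxia (edgeR adjusted p = 0.418) and -0.03 in PTH with hypoxia against hypoxia, compared with -0.92 and -0.63 without it. In hypoxia against normoxia it was -0.47 with the score (edgeR adjusted p = 0.445) and -0.29 without it. D430036J16Rik gave -0.70 and -0.14 with the score, compared with -1.06 and -0.79. Smooth muscle markers (8 genes) summed to 1121 to 1363 CPM in PTH with hypoxia, 1266 to 1639 CPM in hypoxia and 1124 to 1805 CPM in normoxia, with the highest sum in normoxia replicate 2, where Htr1b was also highest. Of the 8, 0 were called by edgeR, while DESeq2 called Actg2 in PTH with hypoxia against normoxia (log2 fold change -1.12, DESeq2 adjusted p = 0.0150) and Lmod1 in hypoxia against normoxia (0.74, DESeq2 adjusted p = 0.00298), named after their values were seen. The part of these markers in the Htr1b values was not tested.

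**Figure D2:**
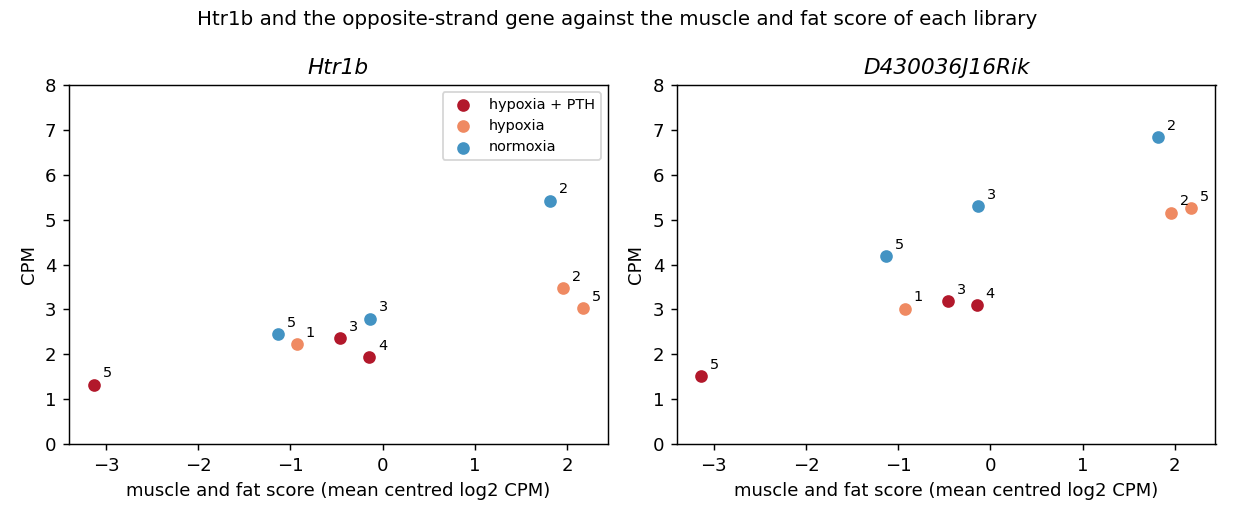
Level of Htr1b (left) and of the opposite-strand gene D430036J16Rik (right) in CPM against the muscle and fat score of each library, 1 numbered point for each replicate, coloured by group. PTH replicate 5 has the lowest score (-3.13) and the lowest level of both genes, and normoxia replicate 2 has the highest level of both.

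The Htr1b window is shown beside that of Htr2a because these were the 2 genes that passed an unadjusted p of 0.05. Htr1b lies on the minus strand, at chr9:81633783-81634082, and Htr2a on the plus strand, at chr14:74640624-74640923 (RefSeq, GRCm38.p6), with matches to the motifs above in capitals.
Htr1b: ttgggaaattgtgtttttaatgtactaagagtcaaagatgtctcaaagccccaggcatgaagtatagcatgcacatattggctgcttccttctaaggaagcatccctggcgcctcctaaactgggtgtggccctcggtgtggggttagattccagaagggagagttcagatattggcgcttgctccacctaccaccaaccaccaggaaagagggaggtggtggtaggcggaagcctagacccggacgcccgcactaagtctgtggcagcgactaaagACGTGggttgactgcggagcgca
Htr2a: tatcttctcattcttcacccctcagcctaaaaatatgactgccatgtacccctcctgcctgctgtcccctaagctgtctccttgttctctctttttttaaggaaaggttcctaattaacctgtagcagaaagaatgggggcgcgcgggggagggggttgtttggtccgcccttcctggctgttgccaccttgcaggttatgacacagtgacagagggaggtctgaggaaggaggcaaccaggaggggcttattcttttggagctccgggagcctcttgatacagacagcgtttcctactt
The Htr1b window held 1 match, ACGTG at position 28 after the start, and neither of the other motifs. The Htr2a window held none of the 3. GC content was 67.7% in the Slc6a4 window, 53.3% in that of Htr1b and 52.0% in that of Htr2a.

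Htr2a (ENSMUSG00000034997, mm10 chr14:74640840-74709494, plus strand) encodes a receptor coupled to Gq that contracts vascular smooth muscle and acts on platelets. Its level was 2.32, 7.07 and 3.83 CPM in PTH replicates 3, 4 and 5, 2.82, 3.74 and 2.702 CPM in hypoxia replicates 1, 2 and 5, and 1.502, 1.14 and 2.95 CPM in normoxia replicates 2, 3 and 5. PTH replicate 4 stood well above every other library, and normoxia replicate 5 lay within the range of the hypoxia group, so that all pairs of groups overlapped. The means were 4.41 ± 2.43 CPM in PTH with hypoxia, 3.09 ± 0.566 CPM in hypoxia and 1.86 ± 0.957 CPM in normoxia (SD, n = 3 each). PTH with hypoxia against normoxia gave the largest log2 fold change of the 5 tested genes, 1.25 (SE 0.44, 95% interval 0.25 to 2.24, edgeR unadjusted p = 0.0190 and adjusted p = 0.189). DESeq2 gave an adjusted p of 0.0525, just above the threshold, and the adjusted p over all alternatives ran from there to 0.4995. The size of this difference depended on single libraries. Without PTH replicate 4 the log2 fold change was 0.73 and without normoxia replicate 5 it was 1.74, with edgeR adjusted p of 0.442 and 0.0983.

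The other comparisons of Htr2a also depended on single libraries. PTH with hypoxia against hypoxia gave 0.51 (SE 0.44, interval -0.46 to 1.49, edgeR adjusted p = 0.770), which was -0.0036 without PTH replicate 4. In hypoxia against normoxia the value was 0.73 (SE 0.44, interval -0.26 to 1.72, edgeR adjusted p = 0.584), which was 1.22 without normoxia replicate 5 and 0.47 without normoxia replicate 3. These intervals include a doubling as well as no difference. In PTH with hypoxia against normoxia the value was 1.24 in a fit that included muscle and fat content and 1.09 in one that included the clock score. The clock score gave 0.25 in PTH with hypoxia against hypoxia.

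Htr2b (ENSMUSG00000026228, mm10 chr1:86099026-86111970, minus strand) encodes a further receptor coupled to Gq, which in mice is required for the development of hypoxic pulmonary hypertension. It had 244 counts in all 9 libraries together. Its level was 0.355, 0.508 and 0.710 CPM in PTH replicates 3, 4 and 5, 0.544, 0.612 and 0.639 CPM in hypoxia replicates 1, 2 and 5, and 0.601, 0.708 and 0.412 CPM in normoxia replicates 2, 3 and 5. The hypoxia libraries lay inside the ranges of both other groups. The means were 0.524 ± 0.178 CPM in PTH with hypoxia, 0.598 ± 0.0488 CPM in hypoxia and 0.573 ± 0.1498 CPM in normoxia (SD, n = 3 each). The log2 fold changes were -0.19, -0.13 and 0.06 in PTH with hypoxia against hypoxia, PTH with hypoxia against normoxia and hypoxia against normoxia (SE 0.37, 0.37 and 0.36, edgeR adjusted p = 0.925, 0.901 and 0.976). Their intervals, -1.01 to 0.63, -0.95 to 0.68 and -0.75 to 0.87, set what was detectable in these libraries.

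Htr2b lies on the opposite strand to Psmd1, a proteasome subunit gene, and shares 252 exon bases with it, 11.8% of its own exons. Psmd1 had 95.9 to 111 CPM in all libraries, far more than Htr2b. Psmd1 gave log2 fold changes of 0.00, 0.05 and 0.05 in the 3 comparisons in the same order, and its part in the Htr2b counts was not tested.

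Tph1 (ENSMUSG00000040046, mm10 chr7:46644641-46672537, minus strand) encodes the rate-limiting enzyme of serotonin synthesis outside the brain. It had 0 counts in the 3 PTH libraries, 0, 0 and 4 counts in hypoxia replicates 1, 2 and 5, and 0 counts in the 3 normoxia libraries. The 4 counts correspond to 0.0730 CPM. A count of 0 allows a level of up to 0.0518 to 0.0742 CPM in these libraries, taken as 3 counts. This bound covers counting error only and takes each count as independent, although it is uncertain whether reads or fragments were counted. Tph1 was therefore not tested, and any difference between the groups was not detectable at this depth.

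Maoa (ENSMUSG00000025037, mm10 chrX:16619698-16687818, plus strand) encodes the mitochondrial monoamine oxidase that prefers serotonin and noradrenaline. Its level was 84.4, 52.6 and 53.7 CPM in PTH replicates 3, 4 and 5, 68.5, 57.3 and 57.0 CPM in hypoxia replicates 1, 2 and 5, and 57.0, 51.6 and 49.4 CPM in normoxia replicates 2, 3 and 5. The hypoxia libraries lay just above the normoxia libraries, the closest pair being 57.04 and 56.99 CPM. The PTH group overlapped both others, with PTH replicate 3 above all libraries. The means were 63.6 ± 18.01 CPM in PTH with hypoxia, 61.0 ± 6.54 CPM in hypoxia and 52.7 ± 3.90 CPM in normoxia (SD, n = 3 each). The log2 fold change was 0.06 in PTH with hypoxia against hypoxia (SE 0.17, 95% interval -0.32 to 0.44, edgeR adjusted p = 0.956), and it was -0.20 without PTH replicate 3, 0.14 with the clock score and 0.10 with the muscle and fat score. It was 0.27 in PTH with hypoxia against normoxia (SE 0.17, interval -0.11 to 0.66, edgeR adjusted p = 0.470), and 0.01 without PTH replicate 3. In hypoxia against normoxia it was 0.21 (SE 0.17, interval -0.17 to 0.59, edgeR adjusted p = 0.725), and the two-sided exact permutation test gave the smallest possible p of 0.1. A doubling lies outside all 3 intervals.

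**Figure D3:**
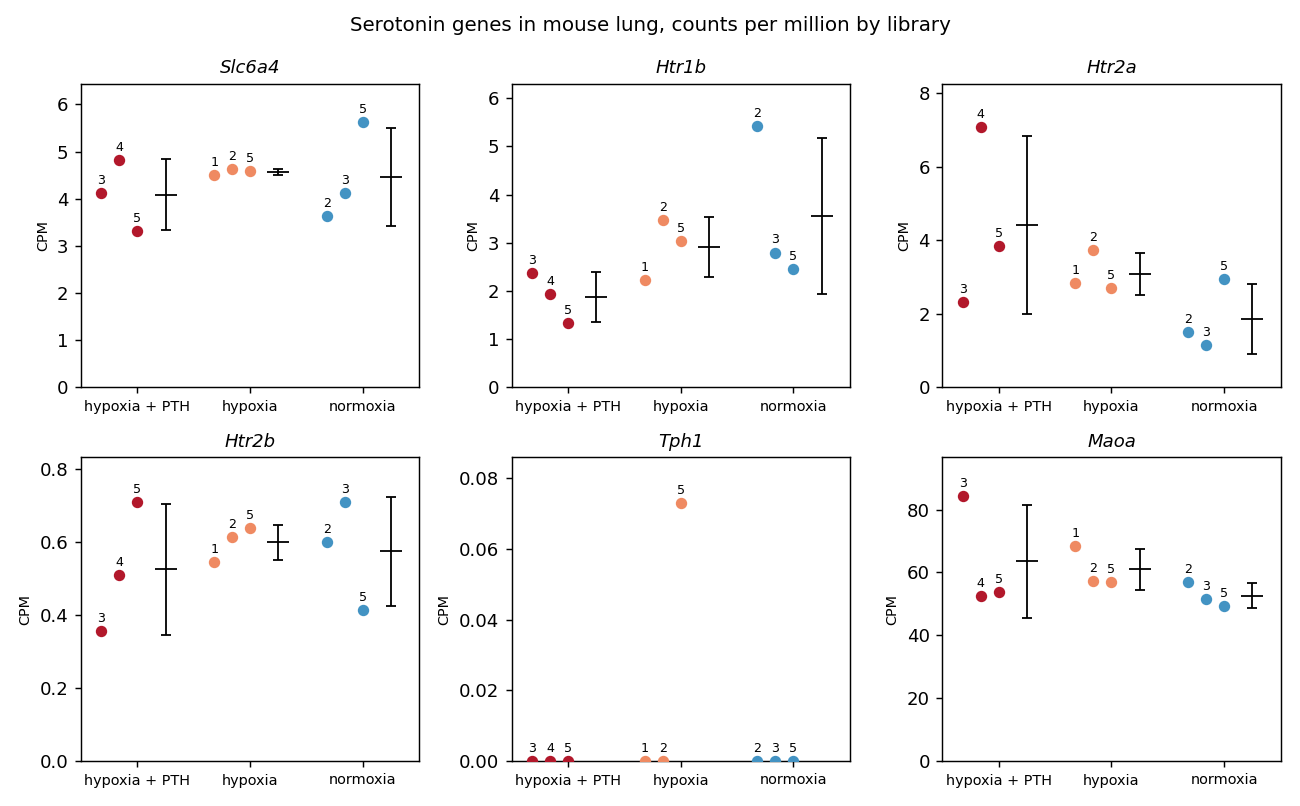
Level in CPM of the 6 serotonin genes in each library, with 1 numbered point for each replicate and, beside the points, the mean with its SD (n = 3), except for Tph1. For Htr1b all PTH points (1.33 to 2.36 CPM) lie below all normoxia points (2.45 to 5.42 CPM), for Htr2a PTH replicate 4 stands apart at 7.07 CPM, and Tph1 has a count in hypoxia replicate 5 only.

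**Figure D4:**
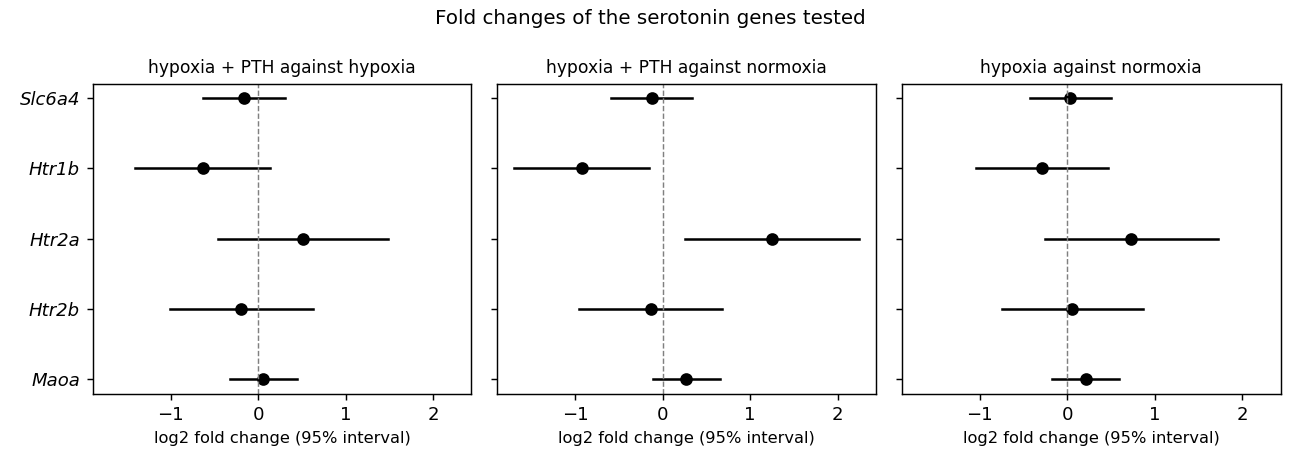
Log2 fold changes of the 5 genes tested, with 95% intervals from the edgeR fit, in 3 panels for PTH with hypoxia against hypoxia, PTH with hypoxia against normoxia and hypoxia against normoxia. The intervals of Htr1b (-1.69 to -0.15) and Htr2a (0.25 to 2.24) in PTH with hypoxia against normoxia lie to one side of 0, before adjustment over all genes, and all other intervals include 0.

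The profiles over libraries differed between the 5 tested genes. Pearson r of log2 CPM between pairs of them, over 9 libraries that share the group structure, ran from -0.55 for Htr2a with Htr1b to 0.32 for Slc6a4 with Htr2a, given as a description. For each gene the 3 most alike profiles were looked up among 11710 genes with a mean of at least 5 CPM (11709 for Maoa), again over 9 libraries. Slc6a4 was most like Pigm (r = 0.947), Brd8 (0.947) and Mysm1 (0.942). Htr2a was most like Slc36a4 (0.962), Mrip-ps (0.956) and Piezo1 (0.949), the last of which encodes a mechanically gated ion channel. Htr1b was most like Wdr34 (0.991), Adam28 (0.978) and Fam84a (0.977). Htr2b was most like Babam1 (0.901), Lrrc8e (0.889) and Chrd (0.876), and Maoa was most like Pkia (0.956), Tiam1 (0.946) and Phf6 (0.939). These are the highest of many correlations over few libraries.

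Of 11 other serotonin receptor genes, 3 had enough counts to be tested and 0 were called in any comparison by edgeR or by DESeq2, which gave an adjusted p for Htr2c only. Their median log2 fold changes were 0.11 in PTH with hypoxia against hypoxia, -0.24 in PTH with hypoxia against normoxia and 0.34 in hypoxia against normoxia, beside -0.01, -0.01 and -0.00 over all genes tested. At an unadjusted edgeR p under 0.05, 2, 0 and 1 of the 3 passed, beside 9.31%, 17.2% and 11.8% of all genes tested. Htr2c, a receptor best known from the brain, had 1.21 to 1.99 CPM in PTH with hypoxia, 1.39 to 1.53 CPM in hypoxia and 1.00 to 1.24 CPM in normoxia. Its hypoxia libraries lay above all normoxia libraries (groups did not overlap for 17.1% of all genes tested). Htr7, which couples to stimulatory G proteins, had 0.284, 0.185 and 0.308 CPM in PTH with hypoxia, 0.124, 0.131 and 0.110 CPM in hypoxia and 0.413, 0.242 and 0.260 CPM in normoxia. The hypoxia libraries of Htr7 lay below both other groups (groups did not overlap for 13.9% of all genes tested against PTH with hypoxia and 17.1% against normoxia). The log2 fold change of Htr7 was 1.08 in PTH with hypoxia against hypoxia (SE 0.48, edgeR adjusted p = 0.531) and -1.31 in hypoxia against normoxia (SE 0.47, edgeR adjusted p = 0.278), from 5 to 22 counts a library. Htr3a, an ion channel subunit found on neurons, had 0 counts in all 3 PTH libraries, 2, 36 and 28 counts in hypoxia replicates 1, 2 and 5, and 16, 2 and 0 counts in normoxia replicates 2, 3 and 5. Htr3a was thus uneven within the hypoxia and normoxia groups. Of the 8 receptor genes not tested, Htr1a, Htr1f and Htr5a had 0 counts in every library, and Htr4 had the most, with 57 counts in all libraries together.

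Of 4 further genes of synthesis and storage, 3 were tested and 0 called by edgeR. At an unadjusted p under 0.05, 1 passed in PTH with hypoxia against hypoxia (9.31% of all genes tested), 1 in PTH with hypoxia against normoxia (17.2%) and 0 in hypoxia against normoxia (11.8%). The median log2 fold changes of the 3 were -0.30 in PTH with hypoxia against hypoxia, 0.17 in PTH with hypoxia against normoxia and 0.37 in hypoxia against normoxia. Ddc, the decarboxylase that completes serotonin synthesis, had 2.17 to 3.85 CPM in PTH with hypoxia, 2.88 to 4.35 CPM in hypoxia and 1.39 to 3.57 CPM in normoxia, so all groups overlapped. Tph2, the hydroxylase of neurons, had 2 counts in all libraries together and was not tested. Slc18a1, a vesicular monoamine transporter of endocrine cells, had 0.993 to 1.39, 0.876 to 1.46 and 0.880 to 1.17 CPM in the same groups.

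Slc18a2, the vesicular monoamine transporter that fills the granules of platelets, mast cells and neurons, had 0.0945, 0 and 0.142 CPM in PTH replicates 3, 4 and 5, from 4, 0 and 6 counts. It had 0.495, 1.05 and 0.529 CPM in hypoxia replicates 1, 2 and 5 and 0.751, 0.380 and 0.477 CPM in normoxia replicates 2, 3 and 5. All PTH libraries lay below all others (groups did not overlap for 13.9% of all genes tested against hypoxia and 22.8% against normoxia). The log2 fold change was -3.10 in PTH with hypoxia against hypoxia (SE 0.73, edgeR unadjusted p = 0.00182 and adjusted p = 0.426) and -2.73 in PTH with hypoxia against normoxia (SE 0.74, edgeR adjusted p = 0.0985). DESeq2 called the second (adjusted p = 0.00689) and gave no adjusted p for the first, and both rest on the same PTH libraries with 10 counts in all. It was 0.37 in hypoxia against normoxia (SE 0.60, edgeR adjusted p = 0.882).

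Markers of the cells that store serotonin were read beside it. The 13 platelet and megakaryocyte markers summed to 72.2 to 99.9 CPM in PTH with hypoxia, 74.5 to 95.2 CPM in hypoxia and 84.0 to 123 CPM in normoxia. The 11 mast cell markers, of which 7 were tested, summed to 229 to 252, 256 to 262 and 211 to 329 CPM, and the 10 neuroendocrine markers to 13.2 to 15.6, 13.9 to 22.2 and 13.7 to 17.6 CPM, in the same order of groups. In PTH with hypoxia against hypoxia, 10 of 13 platelet markers, 6 of 7 mast cell markers and 10 of 10 neuroendocrine markers had log2 fold changes below 0, with medians of -0.33, -0.96 and -0.91. In PTH with hypoxia against normoxia 12 of 13, 7 of 7 and 9 of 10 were below 0 (medians -0.58, -0.19 and -1.06), and in hypoxia against normoxia, where Slc18a2 had 0.37, 13 of 13, 2 of 7 and 6 of 10 were (medians -0.26, 0.12 and -0.07). None of these markers was called by edgeR in any comparison, while DESeq2 called 3 of them lower in PTH with hypoxia against normoxia. In that comparison DESeq2 called 7.67% of all genes to which it gave an adjusted p. None of the markers was at 0 in every library, and their part in the Slc18a2 values was not tested. Values below 0 in PTH with hypoxia against hypoxia were not particular to these cells. They were found for 8 of 8 smooth muscle, 8 of 8 heart muscle, 5 of 5 fat and 5 of 5 neutrophil markers tested. For alveolar epithelium 1 of 8 was below 0, and the median over all genes tested was -0.01.

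The 5 genes that make and recycle tetrahydrobiopterin, the cofactor of tryptophan hydroxylase, were all tested, and 0 were called by edgeR or DESeq2 or had an unadjusted edgeR p under 0.05. Gch1, the first enzyme of the pathway, had 20.9 to 27.6 CPM in PTH with hypoxia, 16.6 to 22.7 CPM in hypoxia and 20.3 to 23.7 CPM in normoxia. Pts, Spr, Qdpr and Pcbd1 had log2 fold changes between -0.13 and 0.15 in all comparisons. This narrow range does not include Gch1, and the medians of all 5 genes were 0.00, 0.08 and 0.02 in the 3 comparisons.

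Of 8 genes of low-affinity uptake and further breakdown, 5 were tested and 0 called by edgeR. At an unadjusted p under 0.05, 2 of the 5 passed in each comparison. Of all genes tested, 9.31% passed in PTH with hypoxia against hypoxia, 17.2% in PTH with hypoxia against normoxia and 11.8% in hypoxia against normoxia. Slc22a3, the extraneuronal organic cation transporter that carries monoamines, had 13.9, 9.03 and 8.97 CPM in PTH replicates 3, 4 and 5, 6.11, 4.98 and 6.04 CPM in hypoxia replicates 1, 2 and 5, and 6.81, 5.54 and 4.16 CPM in normoxia replicates 2, 3 and 5. All PTH libraries lay above all others (groups did not overlap for 13.9% of all genes tested against hypoxia and 22.8% against normoxia). Its log2 fold change was 0.89 in PTH with hypoxia against hypoxia (SE 0.23, edgeR adjusted p = 0.426) and 0.95 in PTH with hypoxia against normoxia (SE 0.23, edgeR adjusted p = 0.0702). DESeq2 called both, with adjusted p of 0.0303 and 0.00262, and edgeR called neither. In hypoxia against normoxia it was 0.05 (SE 0.23, edgeR adjusted p = 0.967).

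Aldh2, the mitochondrial aldehyde dehydrogenase that oxidises the product of monoamine oxidase, had 1067, 1056 and 905 CPM in PTH replicates 3, 4 and 5, 1126, 1093 and 1096 CPM in hypoxia replicates 1, 2 and 5, and 1210, 1469 and 1402 CPM in normoxia replicates 2, 3 and 5. The groups did not overlap, with PTH with hypoxia lowest and normoxia highest. Of all genes tested, 13.9% separated in PTH with hypoxia against hypoxia, 22.8% in PTH with hypoxia against normoxia and 17.1% in hypoxia against normoxia. The log2 fold change of Aldh2 was -0.43 in PTH with hypoxia against normoxia (SE 0.10, edgeR adjusted p = 0.0640, DESeq2 adjusted p = 0.00118), -0.30 in hypoxia against normoxia (SE 0.10, edgeR adjusted p = 0.244) and -0.13 in PTH with hypoxia against hypoxia (SE 0.10, edgeR adjusted p = 0.730). Maob, the second monoamine oxidase, had 38.7 to 53.9 CPM in PTH with hypoxia, 43.9 to 44.3 CPM in hypoxia and 38.5 to 51.1 CPM in normoxia. Per kb of exon Maob had 13.8 to 19.3 CPM, a range close to that of Maoa. Slc29a4, the plasma membrane monoamine transporter, had 0.922 to 1.47 CPM in PTH with hypoxia, 1.09 to 1.94 CPM in hypoxia and 0.507 to 1.00 CPM in normoxia. Its hypoxia libraries lay above all normoxia libraries (groups did not overlap for 17.1% of all genes tested). The log2 fold change of Slc29a4 in hypoxia against normoxia was 0.96 (edgeR adjusted p = 0.287, DESeq2 adjusted p = 0.163).

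The list of receptor coupling and effector genes held G protein subunits, phospholipases, arrestins and downstream effectors, and 22 of its 23 genes were tested. By edgeR 0 rose and 2 fell in PTH with hypoxia against normoxia and the same 2 fell in hypoxia against normoxia, while 0 were called in PTH with hypoxia against hypoxia, where 4 had an unadjusted p under 0.05. DESeq2 called 4, 3 and 1 of the 22 in these comparisons, adding Ager and Plcb1, Kcna5, and Ager to Plcb2 and Gng2, which are named here after their values were seen. Of all genes with an adjusted p from DESeq2, 7.67%, 4.28% and 0.919% were called in these comparisons. Over all genes tested by edgeR, 1.27% rose and 0.468% fell in PTH with hypoxia against normoxia, and 0.412% rose and 0.158% fell in hypoxia against normoxia. Plcb2, a phospholipase C that Gq and G protein beta-gamma subunits activate, had 14.3, 11.1 and 14.7 CPM in PTH replicates 3, 4 and 5, 13.9, 14.8 and 14.1 CPM in hypoxia replicates 1, 2 and 5, and 25.3, 21.7 and 24.5 CPM in normoxia replicates 2, 3 and 5. Both hypoxic groups lay below all normoxia libraries and overlapped each other. The log2 fold change was -0.83 in PTH with hypoxia against normoxia (SE 0.12, edgeR adjusted p = 0.0143) and -0.74 in hypoxia against normoxia (SE 0.12, edgeR adjusted p = 0.0324). Gng2, a G protein gamma subunit, had 43.3, 36.4 and 40.7 CPM in PTH replicates 3, 4 and 5, 36.6, 37.4 and 40.2 CPM in hypoxia replicates 1, 2 and 5, and 55.2, 53.0 and 66.7 CPM in normoxia replicates 2, 3 and 5. Its log2 fold change was -0.54 in PTH with hypoxia against normoxia (SE 0.10, edgeR adjusted p = 0.0333) and -0.61 in hypoxia against normoxia (SE 0.10, edgeR adjusted p = 0.0344). Both comparisons use the same normoxia libraries.

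Whether they were called depended on single libraries and on the method. Over 20 alternatives, Plcb2 was called in 17 in PTH with hypoxia against normoxia and in 9 in hypoxia against normoxia, and Gng2 in 7 in each. The 3 limma fits on TPM called neither gene in hypoxia against normoxia. With each library left out in turn, Plcb2 stayed called in 8 of 9 fits in PTH with hypoxia against normoxia and in 3 of 9 in hypoxia against normoxia, and Gng2 in 2 of 9 in each. When muscle and fat content entered the fit, edgeR adjusted p in hypoxia against normoxia was 0.0615 for Plcb2 and 0.0668 for Gng2. The sign of both genes was negative in every one of the 20 alternatives.

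**Figure D5:**
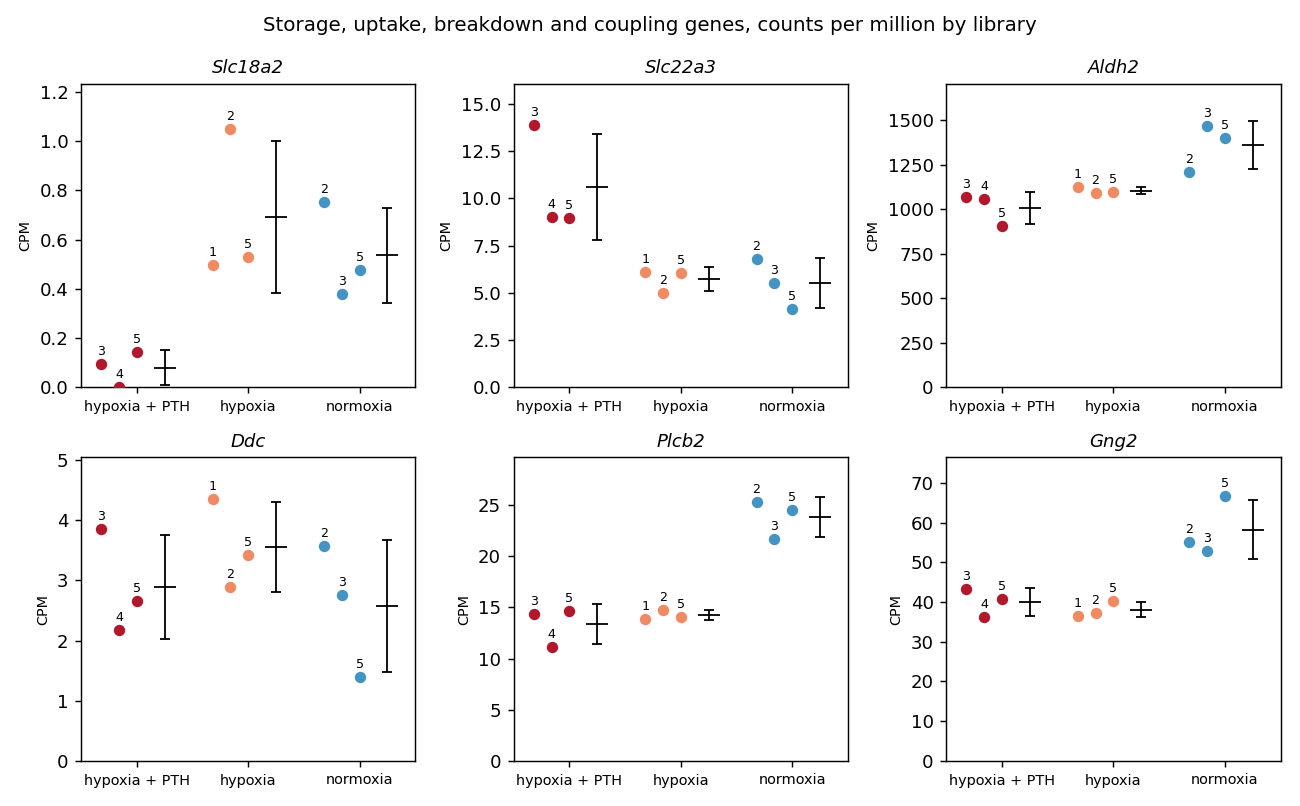
Level in CPM of 6 further genes of serotonin storage, uptake, breakdown and receptor coupling in each library, with 1 numbered point for each replicate and, beside the points, the mean with its SD (n = 3). All PTH points lie below the others for Slc18a2 and above them for Slc22a3, and normoxia lies above both other groups for Aldh2, Plcb2 and Gng2.

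Markers of lung cell types were read beside the serotonin genes. By edgeR, 2 of 7 tested pericyte markers (Cspg4 and Higd1b) and 1 of 7 general endothelial markers (Emcn) rose against normoxia in both PTH with hypoxia and hypoxia, while 1 of 9 general capillary markers (Plvap) and 2 of 9 aerocyte markers (Cyp4b1 and Ednrb) fell in both. Over all genes tested, 1.27% rose and 0.468% fell in PTH with hypoxia against normoxia, and 0.412% rose and 0.158% fell in hypoxia against normoxia. The marker lists were not uniform. In PTH with hypoxia against normoxia 7 of 7 pericyte, 5 of 7 endothelial, 4 of 9 general capillary and 2 of 9 aerocyte markers were above 0, and in hypoxia against normoxia 6, 4, 5 and 2 were. Emcn had a log2 fold change of 1.14 in PTH with hypoxia against normoxia and 0.99 in hypoxia against normoxia (SE 0.13 each, edgeR adjusted p = 0.00308 and 0.00694), and Plvap had -2.19 and -2.70 (SE 0.25 and 0.26, edgeR adjusted p = 0.00490 and 0.00290). Sema3c, of the capillary list, and Pdgfra, of the fibroblast list, rose in PTH with hypoxia against normoxia, by log2 values of 1.35 and 0.60 (SE 0.24 and 0.12, edgeR adjusted p = 0.0304 and 0.0469). In hypoxia against normoxia Sema3c had 1.32, which missed the threshold in edgeR (adjusted p = 0.0553) and passed in DESeq2 (adjusted p = 2.8e-06) and in 7 of 20 alternatives in all. Pdgfra had 0.27 there (edgeR adjusted p = 0.443). Their difference between PTH with hypoxia and hypoxia did not pass (edgeR adjusted p = 0.9904 and 0.476). Of 8 fibroblast markers DESeq2 called Col1a1 and Col1a2 in hypoxia against normoxia, and these with Col13a1 and Pdgfra in PTH with hypoxia against normoxia. It also called Notch3 of the pericyte list in both. Pdgfrb of that list and Fibin of the aerocyte list were called by DESeq2 in PTH with hypoxia against normoxia only. Markers of smooth muscle, platelets, mast cells, neuroendocrine cells, alveolar epithelium, heart muscle, fat and neutrophils and the clock genes had 0 calls in every comparison by edgeR. Of their 73 tested genes, 15, 14 and 6 had an unadjusted edgeR p under 0.05 in PTH with hypoxia against hypoxia, PTH with hypoxia against normoxia and hypoxia against normoxia, and DESeq2 called 3, 6 and 2. Over all genes the shares were 9.31%, 17.2% and 11.8% at that p and 0.919%, 7.67% and 4.28% by DESeq2, in the same order. The part of these cell markers in the values of the serotonin genes was not tested.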

How the data were processed

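Whole-lung RNA of 9 libraries in 3 groups was analysed from 1 deposited table. Per the submitters' processing notes, reads were handled with Trimmomatic 0.39 and STAR 2.7.9a on the mouse build mm10. Which counter and gene models were used, and whether strand was read, is not given in the sources used here. Deposited values named counts are estimated counts, since 11.6% of those above 0 were whole (within 1e-06). Even numbers made up 88.9% of whole counts between 1 and 20, which leaves it uncertain whether reads or fragments were counted. The deposited log2 values are TPM on a log2 scale, set to at least 1 TPM. Symbols and positions are the table's, and the 6 positions match GENCODE M21.

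Counts were rounded and fitted with edgeR 4.0.16 in R 4.3.3 (TMM, filterByExpr with minimum count 10 and minimum total 15, robust quasi-likelihood F test, 1 model of 9 libraries, 6 residual degrees of freedom), after a check on simulated data. The common biological coefficient of variation was 0.204. Alternatives used DESeq2 1.42.0, limma 3.58.1 on log2(TPM + 1) and log2(TPM + 0.1), other filters and scaling, a replicate block, covariates and libraries left out. The fit to the deposited log2 values was added after the data were seen. Intervals and floors cover the fit and counting error only. Named were the 6 genes, tested genes of the receptor, synthesis, cofactor and breakdown lists, called genes of the coupling and marker lists (at most 4 a list by smallest p), and the 3 nearest profiles of each gene, predicted genes left out. D430036J16Rik, Psmd1 and Gm12343 were named for their position, and Tph2, Htr1a, Htr1f, Htr5a and Htr4 after their counts were seen. The members and lists were chosen with earlier results of these data known.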

Additional observations from a re-analysis of the deposited data

How the results depend on the processing

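None of the 5 tested genes was called at an adjusted p under 0.05 in any of the 20 alternatives, and none at a threshold of 0.1 in the edgeR fit reported. Adjusted p between these thresholds came up for Htr2a (0.0525 by DESeq2, 0.0983 without normoxia replicate 5) and Htr1b (0.0985 by DESeq2) in PTH with hypoxia against normoxia. Signs of some uncalled values turned, where the ranges below include 0, and the cause was not tested. With libraries left out in turn, Slc6a4 ran from -0.30 to -0.03 in PTH with hypoxia against hypoxia, -0.263 to 0.0762 in PTH with hypoxia against normoxia and -0.0924 to 0.238 in hypoxia against normoxia. Htr2b ran from -0.471 to 0.0241, -0.413 to 0.0818 and -0.13 to 0.24, Htr2a from -0.0036 to 0.82, 0.73 to 1.74 and 0.47 to 1.22, Htr1b from -0.83 to -0.44, -1.13 to -0.48 and -0.50 to 0.15, and Maoa from -0.20 to 0.18, 0.01 to 0.39 and 0.12 to 0.27. The sign of Htr2b also turned with the clock score, to 0.0219 in PTH with hypoxia against normoxia.

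Counts of all genes called moved more. In PTH with hypoxia against hypoxia, 0 genes were called by edgeR (1828 at an unadjusted p under 0.05), 156 by DESeq2, 3 by limma with either pseudocount and 3 on the deposited log2 values, and 0 to 1 with libraries left out (1 without hypoxia replicate 5). In PTH with hypoxia against normoxia the count was 341 in edgeR, 1417 in DESeq2, 76 with the clock score, 130 with the muscle and fat score, 833 at a threshold of 0.1, and 81 to 359 with libraries left out. The lowest of these were 81 without normoxia replicate 2, 84 without normoxia replicate 3, 83 without PTH replicate 5 and 186 without PTH replicate 4. In hypoxia against normoxia it was 112 in edgeR, 791 in DESeq2, 198 with no filter, 324 at a threshold of 0.1, and 50 to 158 with libraries left out (50 without normoxia replicate 3, 52 without hypoxia replicate 1, 70 without hypoxia replicate 5).

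Correlations of deviations between libraries with the same replicate number ran from -0.10 to 0.14, which cannot settle whether libraries were paired. The clock score was -0.05, 0.32 and -0.07 in replicate 5 of PTH with hypoxia, hypoxia and normoxia. In replicate 3 it was -0.11 in PTH with hypoxia and 5.07 in normoxia. With the replicate number as a block, 17 genes were called in PTH with hypoxia against normoxia and 8 in hypoxia against normoxia, on 2 residual degrees of freedom. The block gave Htr2a 0.84 (edgeR adjusted p = 0.4995) and Htr1b -0.70 (0.585) in PTH with hypoxia against normoxia, and adjusted p of 0.176 and 0.207 for Plcb2 and 0.271 and 0.311 for Gng2 in PTH with hypoxia against normoxia and hypoxia against normoxia. Htr2b gave no value with a minimum count of 50 or on TPM, and Tph1 was tested only with no filter. Htr2b and Tph1 had the fewest counts of the serotonin genes, 244 and 4 in all libraries together.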

Other observations

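The same motifs were searched in the RefSeq windows of the remaining serotonin genes (GRCm38.p6), and the matches are given as a description. The Maoa window held TGACG at -209 and neither hypoxia motif. The Htr2b window held none of the 3 motifs at a GC content of 41.0%. Tph1 has 2 annotated windows, of which the first held 2 GCGTG matches and 1 TGACG match between -41 and -29, and the second held 3 TGACG matches at -248, -47 and -21.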
